A study of Saccharomyces cerevisiae with 21 samples.

Results

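The 45 genes described here encode factors of the small subunit processome and of 40S ribosomal subunit assembly in the budding yeast Saccharomyces cerevisiae. They were taken by symbol from a list of such factors, by role and not by a measured threshold, and matched to the probes of both array types. The list was chosen with earlier results of these data known. A probe was found for 44 of the 45 genes, out of 5408 genes with a symbol and a value in the series, and UTP20 (YBL004W) had none. The processome is a large nucleolar particle that forms on the precursor of ribosomal RNA as it is transcribed. In it the U3 small nucleolar RNA pairs with the precursor, and the cleavages that release the RNA of the small subunit follow. Most of its protein parts are essential in yeast, and their genes are known as members of the ribosome biogenesis regulon, a group of genes whose transcripts fall together when growth slows.

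Transcripts of strain S288C were measured on 2-colour arrays, where each array carried RNA of irradiated cells and of unirradiated control cells, with 3 arrays for each of 4 radiations. The thermal neutron cultures received 20.8 Gy over 20 h in a reactor beam, in which thermal neutrons gave 1.0 to 2.0 of the 17 mGy/min, so that this group was not exposed to thermal neutrons alone. The carbon ion cultures received 25 Gy of 290 MeV per nucleon in 10 min, the gamma ray cultures 17 Gy from caesium-137 over 20.5 h, and the fast neutron cultures 20.3 Gy. For fast neutrons the labels also give a total dose of 21.4 Gy and a rate of 0.064 Gy/min, and 336 min in one place and 19 h in another. For gamma rays they give a rate of 1.4 Gy/min that does not match 17 Gy over 20.5 h. All cells were irradiated cold in saline, and each control was held cold for the matching time. Neutron-irradiated cells were in cuvettes and their controls in flasks, per the labels, which in places also name heavy ions for the neutron groups. Irradiated and control cells then recovered for 40 min at 25 C in 50 ml of fresh rich medium (YPD) before RNA was taken. Dose, length of exposure, vessel and facility changed with the radiation and cannot be told apart from it. In the neutron groups the vessel also differed between irradiated and control cells, so it cannot be told apart from irradiation within each ratio. The design text describes the samples of a radiation as independently collected. The labels do not say whether each array had a control culture of its own or whether control RNA was pooled, so the spread over 3 arrays may leave out that between control cultures.

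Every value below is a log2 ratio of irradiated over control, so that a negative value is a lower transcript level in irradiated cells, and means are given ± SD over 3 arrays. The authors' normalization set the average ratio of each array near 0, so a change is relative to the other transcripts of the array. In a bulk culture, fewer cells with a transcript and less of it per cell cannot be told apart. The DNA damage response genes HUG1, RNR2 and RNR4 lay above 0 on each of the 12 arrays, at 1.10 or more. Across the listed genes, replicate arrays correlated with r from 0.54 to 0.64 for thermal neutrons, 0.04 to 0.42 for carbon ions, 0.72 to 0.75 for gamma rays and 0.37 to 0.60 for fast neutrons, as a description, since the points share arrays and dyes. Carbon ion replicate 3 stood apart, with a median of -0.07 over the listed genes, against -0.51 and -0.64 on the other carbon ion arrays, although its HUG1 ratio was 3.12. On fast neutron replicate 2, the median of the listed genes was -0.03 in the scan at high laser power and -0.36 in the scan at low power. Gamma ray replicate 3 gave a value for 34 of the 44 genes, against 43 on each of the other gamma ray arrays.

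**Figure D1:**
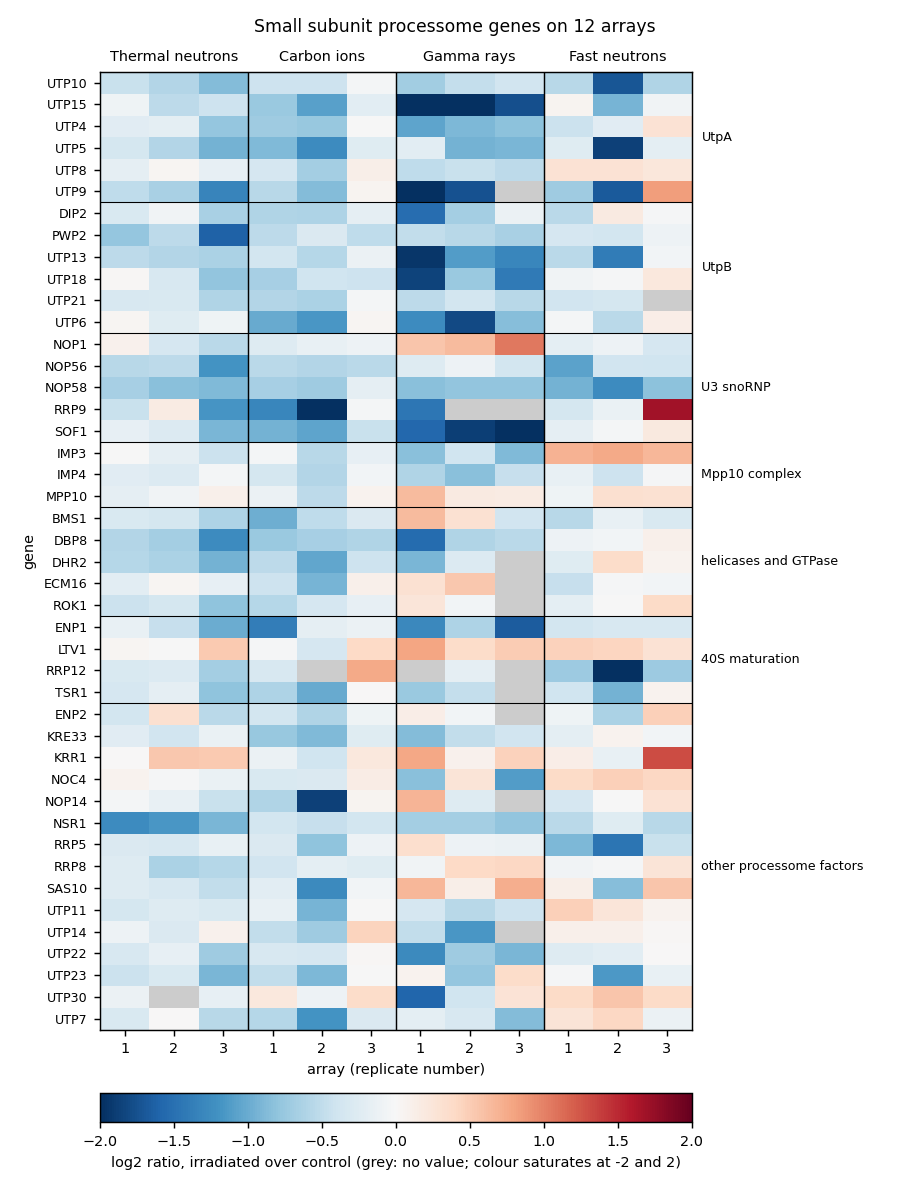
Log2 ratio of irradiated over control (colour, blue lower and red higher in irradiated cells, grey without a value) for the 44 genes with a probe, in rows by role, on the 12 arrays in columns by radiation. The gamma ray columns held both the lowest value, UTP9 at -2.51 on replicate 1, and a red block for NOP1 at 0.55 to 1.05. Values past the ends of the colour scale share the end colour.

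Processome and 40S assembly transcripts lay mostly below their controls. Each radiation was tested against 0 with limma, over every gene that each of its 3 arrays measured, and a gene was called at a Benjamini-Hochberg adjusted p under 0.05. After thermal neutrons 14 of 43 tested listed genes fell, where 21.2% of all genes did, and 0 rose, where 19.9% of all genes did. After carbon ions 14 of 43 fell and 0 rose, where 11.9% of all genes fell and 9.7% rose. After gamma rays 21 of 34 fell and 2 rose, where 22.4% of all genes fell and 17.6% rose. After fast neutrons 4 of 43 fell and 1 rose, where 5.92% of all genes fell and 5.06% rose, a count of calls near the background.

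The median of the tested listed genes was -0.40 after thermal neutrons, -0.44 after carbon ions, -0.57 after gamma rays and -0.12 after fast neutrons, beside medians of all tested genes of -0.04, -0.04, -0.06 and 0.00 in the same order. By array, the median was -0.30, -0.30 and -0.61 for thermal neutrons, -0.51, -0.64 and -0.07 for carbon ions, -0.60, -0.47 and -0.53 for gamma rays, and -0.20, -0.15 and 0.07 for fast neutrons. Fast neutron replicate 3 was the array whose median lay above 0. On carbon ion replicate 2 all 43 genes with a value were below 0, and on replicate 1 43 of 44 were, against 30 of 44 on replicate 3. On the gamma ray arrays 31 of 43, 34 of 43 and 26 of 34 genes were below 0, with the lowest value, -2.51, on replicate 1. The fast neutron arrays had 33 of 44, 32 of 44 and 19 of 43 below 0. Of the 32 listed genes with a value on all 12 arrays, 9 were below 0 on every array (28.1%), where 336 of 4420 genes were (7.6%). These 9 were NOP56, NOP58, NSR1, UTP5, UTP10, UTP13, PWP2, IMP4 and ENP1.

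**Figure D2:**
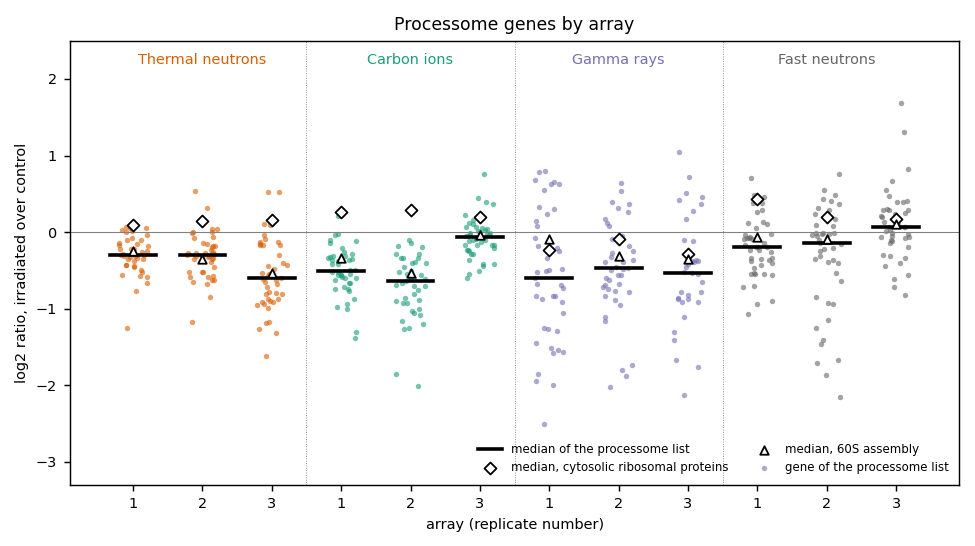
Log2 ratio of irradiated over control of each listed gene (points) on the 12 arrays, grouped by radiation, with the median of the listed genes (bar), of 60S assembly factors (triangle) and of cytosolic ribosomal protein genes (diamond). The bars sit between -0.64 and 0.07, and carbon ion replicate 3 and fast neutron replicate 3 have the bars nearest to or above 0 within their radiations.

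The count of calls depended on single arrays. Without carbon ion replicate 1, and likewise without replicate 2, 0 listed genes were called after carbon ions, while without replicate 3 21 were. All genes called lower then made up 3.66% and 2.98% without replicates 1 and 2 and 11.4% without replicate 3. The thermal neutron count was 12 of 43, 9 of 44 and 5 of 43 without replicates 1, 2 and 3. In those fits 14.1%, 13.7% and 13.4% of all genes fell, so that 5 of 43 was not above the share of all genes. The gamma ray count was 14 of 34, 17 of 34 and 19 of 42, where 19.1%, 15.1% and 14.1% of all genes fell, and more listed genes could be tested without replicate 3. The fast neutron count was 1, 7 and 0, where 0.972%, 16.4% and 0.698% of all genes fell, so that 7 of 43 was near the share of all genes. The median over the listed genes also moved, to -0.40, -0.29 and -0.60 after carbon ions and to -0.04, -0.02 and -0.24 after fast neutrons without replicates 1, 2 and 3. The 9 thermal neutron calls lost without replicate 3 were those of DBP8, DHR2, ROK1, RRP8, UTP5, UTP9, UTP13, UTP21 and UTP22 (highest adjusted p = 0.3). Without gamma ray replicate 1 the calls of DIP2, KRE33, LTV1, PWP2, UTP8, UTP10, UTP11 and UTP21 were lost (highest adjusted p = 0.14). All 5 fast neutron calls were lost without replicate 3 and with the high-power scans alone, and 4 of them, all but RRP12, without replicate 1. NOP58 fell after all 4 radiations, and NSR1, UTP5, UTP10, UTP21 and DBP8 after 3. A further 9 genes fell after 2 radiations and 16 after 1. Of the 44 genes, 31 fell after at least 1 radiation, 3 rose after at least 1 (NOP1 and LTV1 after gamma rays, IMP3 after fast neutrons), and 11 were called after none. How many of all genes fell after 1, 2, 3 or 4 radiations was not counted, so these counts have no background beside them.

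UtpA is the subcomplex that binds the 5' end of the precursor first and that is also linked to transcription of the ribosomal DNA. Its 6 genes are UTP4, UTP5, UTP8, UTP9, UTP10 and UTP15. For this and the later role groups, all genes that fell made up 21.2%, 11.9%, 22.4% and 5.92% after thermal neutrons, carbon ions, gamma rays and fast neutrons. The groups are small, so their counts are a description. After gamma rays all 5 tested UtpA genes fell, with a median of -0.69. After thermal neutrons 3 of 6 fell (UTP5, UTP9 and UTP10, median of the 6 -0.51), and after carbon ions 2 of 6 (UTP5 and UTP15, median -0.47). After fast neutrons 1 of 6 fell (UTP10, median -0.42).

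UTP15 (YMR093W), a WD-repeat subunit, had the lowest mean of the listed genes tested after gamma rays. Its log2 ratios were -0.08, -0.52 and -0.41 on the thermal neutron arrays, -0.74, -1.08 and -0.21 on the carbon ion arrays, -1.995, -2.02 and -1.76 on the gamma ray arrays, and 0.06, -0.92 and -0.07 on the fast neutron arrays. The gamma ray arrays stood below all others, with no overlap. UTP15 fell 3.80-fold after gamma rays (-1.92 ± 0.14, adjusted p = 1.4e-05) and 1.60-fold after carbon ions (-0.68 ± 0.44, adjusted p = 0.014). Its mean was -0.34 ± 0.23 after thermal neutrons (adjusted p = 0.11) and -0.31 ± 0.53 after fast neutrons (adjusted p = 0.34). UTP9 (YHR196W) was at -2.51 and -1.74 on gamma ray replicates 1 and 2, and was not tested there because replicate 3 had no value. In the alternative that tests genes with 2 of 3 arrays it passed (-2.12, adjusted p = 0.00026). After thermal neutrons it fell 1.77-fold (-0.83 ± 0.44, adjusted p = 0.013), and after fast neutrons it ranged from -1.68 to 0.83.

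UTP10 (YJL109C), the largest UtpA protein, was below 0 on all 12 arrays. It was at -0.44, -0.58 and -0.87 after thermal neutrons, -0.42, -0.41 and -0.04 after carbon ions, -0.69, -0.48 and -0.38 after gamma rays, and -0.56, -1.71 and -0.61 after fast neutrons. Fast neutron replicate 2 held the lowest of these and carbon ion replicate 3 the highest. The gene fell 1.55-fold after thermal neutrons (-0.63 ± 0.22, adjusted p = 0.0031), 1.43-fold after gamma rays (-0.52 ± 0.16, adjusted p = 0.0091) and 1.94-fold after fast neutrons (-0.96 ± 0.65, adjusted p = 0.045). After carbon ions the mean was -0.29 ± 0.22 (adjusted p = 0.13). The fast neutron call of UTP10 was lost without replicate 1 or 3 (highest adjusted p = 0.076). UTP5 (YDR398W) also lay below 0 on every array and fell after thermal neutrons (-0.63 ± 0.30), carbon ions (-0.80 ± 0.51) and gamma rays (-0.69 ± 0.42). On the fast neutron arrays it was at -0.24, -1.87 and -0.20, with replicate 2 far below the others. UTP4 (YDR324C) and UTP8 (YGR128C) fell after gamma rays, to -0.92 ± 0.12 and -0.49 ± 0.04, and passed after no other radiation. UTP8 lost its gamma ray call without any of the 3 gamma ray arrays (highest adjusted p = 0.079), and UTP5 without replicate 2 or 3 (highest adjusted p = 0.11).

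UtpB, the second large subcomplex, joins after UtpA and contacts both the precursor and U3. Its genes PWP2, DIP2, UTP6, UTP13, UTP18 and UTP21 all fell after gamma rays, 6 of 6 with a median of -1.04. After thermal neutrons 3 fell (PWP2, UTP13 and UTP21, median of the 6 -0.38), and after carbon ions 2 (UTP6 and UTP21, median -0.45). After fast neutrons 0 of 5 tested fell (median -0.15). UtpA and UtpB together gave 11 of 11 tested genes lower after gamma rays, beside 10 of 23 among the other listed genes. Without gamma ray replicate 1 the UtpA and UtpB count was 6, without replicate 2 it was 7, and without replicate 3, where UTP9 could be tested as well, it was 8 of 12. In those fits 19.1%, 15.1% and 14.1% of all genes fell.

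UTP13 (YLR222C), a WD-repeat protein, was at -0.53, -0.58 and -0.63 after thermal neutrons, -0.37, -0.57 and -0.12 after carbon ions, -1.95, -1.12 and -1.31 after gamma rays, and -0.54, -1.40 and -0.06 after fast neutrons. All 12 values were below 0, with the gamma ray arrays under every thermal neutron and carbon ion array. It fell 2.75-fold after gamma rays (-1.46 ± 0.44, adjusted p = 6.4e-05) and 1.49-fold after thermal neutrons (-0.58 ± 0.05, adjusted p = 0.013). UTP18 (YJL069C) fell 2.52-fold after gamma rays (-1.34 ± 0.56, adjusted p = 0.0005) and passed the test after no other radiation. UTP6 (YDR449C), a repeat protein without WD repeats, fell 2.47-fold after gamma rays (-1.30 ± 0.47, adjusted p = 0.0011) and 1.63-fold after carbon ions (-0.71 ± 0.66, adjusted p = 0.044). On the carbon ion arrays UTP6 was at -1.01, -1.16 and 0.04, the last value being replicate 3.

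PWP2 (YCR057C), a WD-repeat protein essential for growth, had its lowest mean after thermal neutrons, with values of -0.77, -0.52 and -1.62. It fell 1.96-fold there (-0.97 ± 0.58, adjusted p = 0.0014), a call kept under all 11 alternatives run, and 1.48-fold after gamma rays (-0.57 ± 0.08, adjusted p = 0.024), a call lost without any of the 3 gamma ray arrays. The array type of fast neutrons carries 3 probes for PWP2 that disagreed, at -0.86, -0.28 and 0.11 on replicate 1. DIP2 (YLR129W) fell after gamma rays (-0.77 ± 0.71, adjusted p = 0.017) with values of -1.52, -0.68 and -0.11 that spread widely. UTP21 (YLR409C) fell by a similar amount after thermal neutrons (-0.41 ± 0.17), carbon ions (-0.42 ± 0.33) and gamma rays (-0.48 ± 0.10), with adjusted p = 0.034, 0.049 and 0.017. The thermal neutron call of UTP21 was lost without any 1 array, and the carbon ion call without replicate 1 or 2 (highest adjusted p = 0.26).

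**Figure D3:**
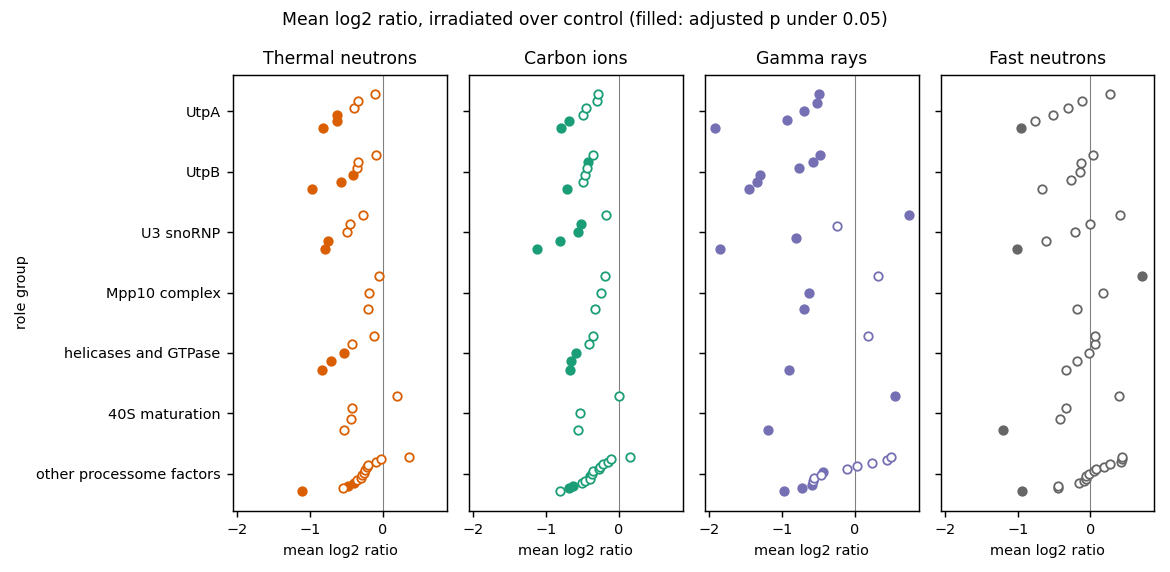
Mean log2 ratio of irradiated over control (horizontal axis, 3 arrays per gene) of the tested listed genes in each role group, in a panel for each radiation, filled where the adjusted p was under 0.05. In the gamma ray panel all 11 UtpA and UtpB points are filled and below 0, while the fast neutron panel has 5 filled points, 1 of them above 0.

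The proteins of the U3 particle are the box C/D core proteins NOP1, NOP56 and NOP58, which occur in all particles that guide ribose methylation, and the U3 proteins RRP9 and SOF1. Their calls were not all of the same sign. After thermal neutrons 2 of 5 fell (NOP56 and NOP58), and after carbon ions 4 of 5 (all but NOP1). After gamma rays 2 of 4 fell and 1 rose (NOP58 and SOF1 lower, NOP1 higher), and after fast neutrons 1 of 5 fell (NOP58).

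NOP58 (YOR310C) was the gene called lower after every radiation. Its values were -0.66, -0.84 and -0.88 after thermal neutrons, -0.67, -0.71 and -0.18 after carbon ions, -0.83, -0.79 and -0.79 after gamma rays, and -0.94, -1.26 and -0.83 after fast neutrons. All 12 lay below 0, and carbon ion replicate 3 was the highest. NOP58 fell 1.73-fold after thermal neutrons (-0.79 ± 0.12, adjusted p = 0.00066), 1.43-fold after carbon ions (-0.52 ± 0.30, adjusted p = 0.016), 1.74-fold after gamma rays (-0.80 ± 0.03, adjusted p = 0.00069) and 2.01-fold after fast neutrons (-1.01 ± 0.22, adjusted p = 0.016). The thermal neutron and gamma ray calls passed under all 11 alternatives each. The carbon ion call was lost with carbon ions fitted alone and without replicate 1 or 2 (highest adjusted p = 0.12). The fast neutron call was lost without replicate 1, without replicate 3 and with the high-power scans alone (highest adjusted p = 0.073).

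NOP56 (YLR197W), the partner of NOP58 in the particle, was at -0.56, -0.53 and -1.19 after thermal neutrons, -0.54, -0.59 and -0.54 after carbon ions, -0.25, -0.11 and -0.36 after gamma rays, and -1.07, -0.39 and -0.40 after fast neutrons. It was below 0 on all 12 arrays, with the gamma ray values the nearest to 0. NOP56 fell 1.69-fold after thermal neutrons (-0.76 ± 0.37, adjusted p = 0.0014) and 1.47-fold after carbon ions (-0.56 ± 0.03, adjusted p = 0.017). Its means of -0.24 ± 0.13 after gamma rays and -0.62 ± 0.39 after fast neutrons did not pass (adjusted p = 0.19 and 0.067).

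NOP1 (YDL014W), the methyltransferase known as fibrillarin in animals, went the other way after gamma rays. It was at 0.08, -0.34 and -0.54 after thermal neutrons, -0.26, -0.15 and -0.11 after carbon ions, 0.55, 0.64 and 1.05 after gamma rays, and -0.20, -0.11 and -0.34 after fast neutrons. The gamma ray arrays were the highest 3 of the 12. NOP1 rose 1.68-fold after gamma rays (0.75 ± 0.27, adjusted p = 0.0022), and this call passed under all 11 alternatives. The other 3 means, from -0.27 to -0.17, did not pass.

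SOF1 (YLL011W), a WD-repeat protein bound to U3, was at -0.16, -0.27 and -0.91 after thermal neutrons, -0.94, -1.06 and -0.44 after carbon ions, -1.56, -1.88 and -2.13 after gamma rays, and -0.17, -0.04 and 0.20 after fast neutrons. The gamma ray arrays were the lowest 3 and did not overlap with any other array. SOF1 fell 3.62-fold after gamma rays (-1.86 ± 0.28, adjusted p = 2.8e-05) and 1.76-fold after carbon ions (-0.81 ± 0.33, adjusted p = 0.009), where it had the smallest p of the listed genes. Its mean was -0.45 ± 0.40 after thermal neutrons (adjusted p = 0.06) and -0.01 ± 0.19 after fast neutrons (adjusted p = 0.98).

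RRP9 (YPR137W), which marks U3 among the box C/D particles, varied widely between replicates. It was at -0.45, 0.16 and -1.18 after thermal neutrons, -1.31, -2.01 and -0.03 after carbon ions, and -0.35, -0.13 and 1.69 after fast neutrons. Gamma ray replicate 1 gave -1.45 and the other gamma ray arrays gave no value. Replicates of the same radiation thus lay far apart, and the carbon ion mean of -1.12 ± 1.00, the lowest of the listed genes there, passed with an adjusted p of 0.045. That call was lost with median-centred arrays, with carbon ions fitted alone, with the replicate number as a block and without replicate 1 or 2 (highest adjusted p = 0.25).

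MPP10, IMP3 and IMP4 form a complex that helps U3 pair with the precursor. Of the 3, 0 fell after thermal neutrons or carbon ions and 2 fell after gamma rays (IMP3 and IMP4). After fast neutrons 1 rose (IMP3) and 0 fell. IMP3 (YHR148W) was at -0.0031, -0.18 and -0.43 after thermal neutrons, -0.04, -0.55 and -0.17 after carbon ions, -0.83, -0.39 and -0.88 after gamma rays, and 0.70, 0.76 and 0.67 after fast neutrons. The 9 arrays of the other radiations were below 0 and the fast neutron arrays, made on another array type, were above 0 by nearly equal amounts. IMP3 fell 1.63-fold after gamma rays (-0.70 ± 0.27, adjusted p = 0.0031) and rose 1.64-fold after fast neutrons (0.71 ± 0.05, adjusted p = 0.029), the highest mean of the listed genes there. The fast neutron call was lost without replicate 1, without replicate 3 and with the high-power scans alone (highest adjusted p = 0.14), and the difference between these radiations was not tested because the tables are separate.

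IMP4 (YNL075W) fell 1.55-fold after gamma rays (-0.63 ± 0.19, adjusted p = 0.0032) and was below 0 on all 12 arrays. MPP10 (YJR002W), the scaffold of the complex, was above 0 on all 3 gamma ray arrays at 0.63, 0.17 and 0.17 without passing the test (adjusted p = 0.095), and was called after no radiation.

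Among the helicases and the GTPase that drive the steps of the particle, 3 of 5 fell after thermal neutrons (DBP8, DHR2 and ROK1). After carbon ions 3 of 5 fell (DBP8, DHR2 and BMS1), after gamma rays 1 of 2 tested (DBP8) and after fast neutrons 0 of 5. DBP8 (YHR169W), a DEAD-box protein, fell 1.79-fold after thermal neutrons (-0.84 ± 0.36, adjusted p = 0.0052), 1.59-fold after carbon ions (-0.67 ± 0.07, adjusted p = 0.03) and 1.86-fold after gamma rays (-0.90 ± 0.56, adjusted p = 0.0037). On the fast neutron arrays it lay between -0.09 and 0.10. The carbon ion call of DBP8 was lost without any 1 array (highest adjusted p = 0.12) and the thermal neutron call without replicate 3 (adjusted p = 0.056).

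DHR2 (YKL078W), a DEAH-box helicase, was at -0.57, -0.63 and -0.94 after thermal neutrons, -0.52, -1.03 and -0.42 after carbon ions, -0.91 and -0.28 on gamma ray replicates 1 and 2 with no value on replicate 3, and -0.24, 0.37 and 0.07 after fast neutrons. The 8 values outside fast neutrons were all below 0. DHR2 fell 1.64-fold after thermal neutrons (-0.71 ± 0.20, adjusted p = 0.0067) and 1.58-fold after carbon ions (-0.66 ± 0.33, adjusted p = 0.02). Its thermal neutron call was lost without replicate 3 (adjusted p = 0.055). Its carbon ion call was lost with the high-power scans alone, with carbon ions fitted alone and without replicate 1 or 2 (highest adjusted p = 0.23). ROK1 (YGL171W), a DEAD-box helicase, fell after thermal neutrons (-0.53 ± 0.24, adjusted p = 0.011), and BMS1 (YPL217C), the GTPase, after carbon ions (-0.59 ± 0.36, adjusted p = 0.044). BMS1 was at 0.63, 0.31 and -0.38 on the gamma ray arrays. ECM16 (YMR128W), the DEAH-box helicase that removes U3 from the precursor, passed in 0 of the 3 radiations where it was tested and was at 0.30 and 0.54 on the gamma ray arrays that measured it.

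The factors of later 40S maturation, TSR1, LTV1, ENP1 and RRP12, gave 0 calls after thermal neutrons or carbon ions. After gamma rays ENP1 fell and LTV1 rose, the 2 that could be tested, and after fast neutrons RRP12 fell. ENP1 (YBR247C), present from the early particle to the exported subunit, fell 2.28-fold after gamma rays (-1.19 ± 0.53, adjusted p = 0.0041) and was below 0 on all 12 arrays, from -1.67 to -0.12. LTV1 (YKL143W), which leaves the late 40S precursor in the cytoplasm, rose 1.47-fold after gamma rays (0.79, 0.37 and 0.51, adjusted p = 0.017), a call lost without replicate 1 or 3 (highest adjusted p = 0.1). LTV1 lay between 0.29 and 0.46 on the fast neutron arrays (adjusted p = 0.12).

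RRP12 (YPL012W), a repeat protein needed for export of both subunits, was at -0.30, -0.28 and -0.68 after thermal neutrons, -0.32 and 0.76 on carbon ion replicates 1 and 3, -0.18 on gamma ray replicate 2, and -0.72, -2.16 and -0.72 after fast neutrons. Carbon ion replicate 2 and gamma ray replicates 1 and 3 had no value, so it was tested for the neutron groups only. RRP12 had the lowest mean of the listed genes after fast neutrons, where it fell 2.30-fold (-1.20 ± 0.83, adjusted p = 0.04), and replicate 2 gave the extreme value. The call was lost without replicate 3 (adjusted p = 0.059). TSR1 (YDL060W), a protein of the late precursor related to BMS1, passed after no radiation and was at -0.74 and -0.47 on gamma ray replicates 1 and 2.

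The remaining factors include NSR1, the yeast protein most like animal nucleolin, which had the lowest mean of the listed genes after thermal neutrons. NSR1 (YGR159C) was at -1.25, -1.17 and -0.91 after thermal neutrons, -0.36, -0.46 and -0.36 after carbon ions, -0.68, -0.69 and -0.79 after gamma rays, and -0.54, -0.25 and -0.56 after fast neutrons. Every array was below 0, and the 3 thermal neutron arrays were the lowest. It fell 2.16-fold after thermal neutrons (-1.11 ± 0.18, adjusted p = 3.1e-05), 1.31-fold after carbon ions (-0.39 ± 0.06, adjusted p = 0.029) and 1.64-fold after gamma rays (-0.72 ± 0.06, adjusted p = 0.0006). After fast neutrons its mean was -0.45 ± 0.17 (adjusted p = 0.096). The carbon ion call was lost without any 1 array (highest adjusted p = 0.14).

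UTP22 (YGR090W), which joins ribosome assembly to a regulator of ribosomal protein genes, fell 1.96-fold after gamma rays (-0.97 ± 0.28, adjusted p = 0.00057). Its thermal neutron mean of -0.40 ± 0.29 lay at the threshold, was called and was lost under 7 of 11 alternatives, without any 1 array among them (highest adjusted p = 0.3). KRE33 (YNL132W), the RNA acetyltransferase, fell 1.55-fold after carbon ions (-0.63 ± 0.35, adjusted p = 0.013) and also fell after gamma rays (-0.58 ± 0.25, adjusted p = 0.009). UTP7 (YER082C), a WD-repeat protein of the core, fell after carbon ions (-0.68 ± 0.46, adjusted p = 0.025), and UTP11 (YKL099C) after gamma rays (-0.44 ± 0.11, adjusted p = 0.046). RRP8 (YDR083W), a methyltransferase that acts on the RNA of the large subunit, fell after thermal neutrons (-0.48 ± 0.20, adjusted p = 0.014). RRP5 (YMR229C), an RNA-binding protein needed for both subunits, fell 1.91-fold after fast neutrons (-0.94 ± 0.51, adjusted p = 0.035) with values of -0.90, -1.47 and -0.44. UTP11 was lost without any 1 gamma ray array (highest adjusted p = 0.18), RRP5 without fast neutron replicate 1 or 3 (highest adjusted p = 0.095), and RRP8 without thermal neutron replicate 2 or 3 (highest adjusted p = 0.095).

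KRR1 (YCL059C), an RNA-binding protein of the core, had the highest mean of the listed genes after thermal neutrons. It was at 0.01, 0.54 and 0.52 after thermal neutrons, -0.12, -0.40 and 0.22 after carbon ions, 0.78, 0.08 and 0.46 after gamma rays, and 0.13, -0.15 and 1.31 after fast neutrons. It was above 0 on all thermal neutron and gamma ray arrays and on both sides of 0 elsewhere, and passed nowhere (adjusted p = 0.11 after thermal neutrons and 0.055 after gamma rays). UTP30 (YKR060W), which is not essential, had the highest mean after carbon ions. It was at -0.11 and -0.17 on thermal neutron replicates 1 and 3, 0.21, -0.10 and 0.36 after carbon ions, -1.59, -0.39 and 0.27 after gamma rays, and 0.38, 0.55 and 0.39 after fast neutrons. No test passed for it (adjusted p = 0.71 after carbon ions, 0.11 after gamma rays and 0.09 after fast neutrons), and the gamma ray arrays fell on both sides of 0. NOC4 (YPR144C), which works with NOP14, was at 0.39, 0.48 and 0.41 on the fast neutron arrays (adjusted p = 0.094). The genes called after none of the radiations in which they were tested were NOP14, UTP14, UTP23, UTP30, MPP10, ECM16, NOC4, SAS10, TSR1, ENP2 and KRR1. Of these, NOP14, UTP14, ECM16, TSR1 and ENP2 were not tested after gamma rays, nor were UTP9, DHR2, RRP9, RRP12 and ROK1. In the alternative with 2 of 3 arrays 8 of these 10 were tested after gamma rays, and UTP9, UTP14 (-0.82, adjusted p = 0.029) and DHR2 (-0.59, adjusted p = 0.039) passed, DHR2 not without replicate 3 (adjusted p = 0.053).

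Differences between radiations were tested within the table that thermal neutrons, carbon ions and gamma rays share, where a gene's dye effect cancels. Gamma ray arrays were scanned once and the others at 2 laser powers, and this too cannot be told apart from the radiation. Of 42 listed genes 1 was lower after thermal neutrons than after carbon ions and 0 were higher, where 4.37% of all genes were lower and 5.8% higher. Thermal neutrons minus gamma rays gave 3 lower and 5 higher of 33, where 17.8% of all genes were lower and 20.4% higher. Carbon ions minus gamma rays gave 2 lower and 4 higher of 34, where 9.35% of all genes were lower and 11.4% higher. In all 3 comparisons the share of listed genes called was below or near that of all genes.

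The differences that passed lay on 10 genes, and 5 of these differed in both comparisons against gamma rays. UTP15 was higher after thermal neutrons than after gamma rays by 1.59 (95% interval 1.09 to 2.08, adjusted p = 0.00037) and higher after carbon ions than after gamma rays by 1.24 (0.75 to 1.74, adjusted p = 0.0044). For SOF1 these differences were 1.41 (0.87 to 1.95, adjusted p = 0.0012) and 1.04 (0.50 to 1.58, adjusted p = 0.014). For UTP13 they were 0.88 (0.40 to 1.36, adjusted p = 0.0089) and 1.11 (0.62 to 1.59, adjusted p = 0.0065). NOP1 differed in the other direction, lower after thermal neutrons than after gamma rays by -1.01 (-1.46 to -0.57, adjusted p = 0.0026) and lower after carbon ions than after gamma rays by -0.92 (-1.36 to -0.47, adjusted p = 0.011). For all 4 of these genes the arrays of the radiations compared did not overlap.

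SAS10 (YDL153C), a protein that binds the Mpp10 complex, was at -0.26, -0.32 and -0.49 after thermal neutrons, -0.21, -1.27 and -0.05 after carbon ions, and 0.66, 0.12 and 0.72 after gamma rays. Its signs were thus opposite, and it differed by -0.86 between thermal neutrons and gamma rays (adjusted p = 0.037) and by -1.01 between carbon ions and gamma rays (adjusted p = 0.033). RRP8 was at -0.25, -0.63 and -0.57 after thermal neutrons, against -0.08, 0.39 and 0.41 after gamma rays, with a difference of -0.73 (adjusted p = 0.01). UTP6 differed between thermal neutrons and gamma rays by 1.21 (adjusted p = 0.011) and UTP18 by 0.97 (adjusted p = 0.018), and UTP22 between carbon ions and gamma rays by 0.76 (adjusted p = 0.028). The arrays of UTP18 overlapped, at -0.79 on thermal neutron replicate 3 and -0.75 on gamma ray replicate 2.

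NSR1 was the gene that differed between thermal neutrons and carbon ions, by -0.72 (95% interval -1.06 to -0.38, adjusted p = 0.017). Its thermal neutron arrays all lay below its carbon ion arrays. That call was lost without carbon ion replicate 1, without thermal neutron replicate 1 or 2, and with arrays scaled to the same spread (highest adjusted p = 0.078). For NOP58, called after every radiation, the difference between thermal neutrons and gamma rays was 0.01 (95% interval -0.38 to 0.40), between thermal neutrons and carbon ions -0.28 (-0.67 to 0.12), and between carbon ions and gamma rays 0.28 (-0.11 to 0.68). These intervals leave room for differences of up to 0.68 in size.

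**Figure D4:**
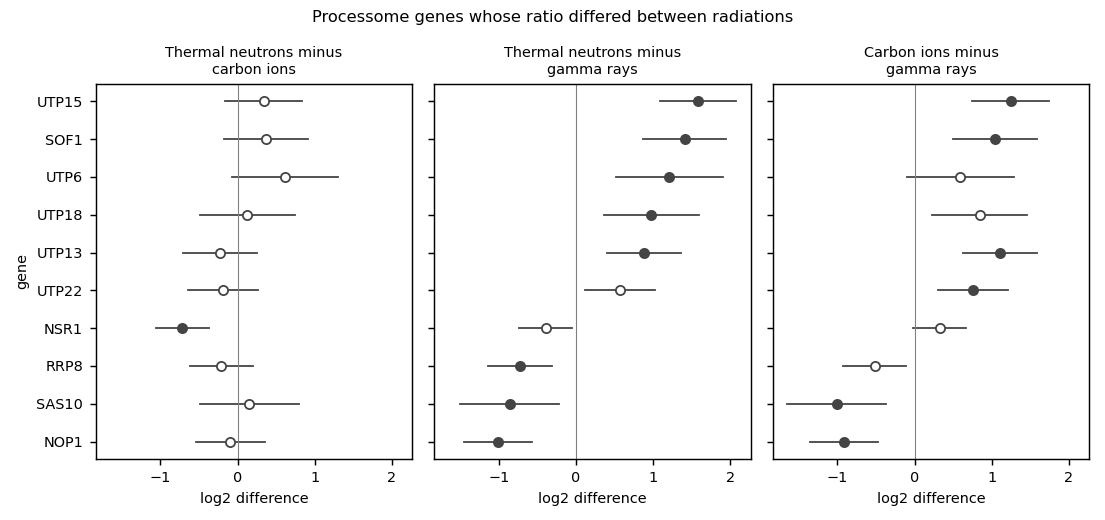
Log2 difference between 2 radiations (horizontal axis, bars are 95% intervals, filled where the adjusted p was under 0.05) of the 10 listed genes that differed in at least 1 comparison. UTP15, SOF1 and UTP13 are filled and above 0 in both comparisons against gamma rays, NOP1 and SAS10 are filled and below 0 there, and NSR1 is the filled point between thermal neutrons and carbon ions.

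Other lists of ribosome biogenesis were set beside the processome genes by their counts and medians, with no test between lists. The shares of all genes that fell, given above, were 21.2%, 11.9%, 22.4% and 5.92% after thermal neutrons, carbon ions, gamma rays and fast neutrons. Other factors of 40S assembly outside the listed genes fell in 8 of 36 after thermal neutrons, 7 of 35 after carbon ions, 11 of 24 after gamma rays (2 rose) and 1 of 35 after fast neutrons (2 rose), with medians of -0.21, -0.28, -0.32 and 0.10. The thermal neutron share, 22.2%, was near that of all genes. Among them HAS1, a helicase, fell after thermal neutrons (-0.54 ± 0.15) and carbon ions (-0.43 ± 0.16), and UTP25, a processome protein, after carbon ions (-0.52 ± 0.40) and gamma rays (-1.22 ± 0.16). TSR3 rose after gamma rays (0.95 ± 0.16), and BUD21 rose after fast neutrons (0.67 ± 0.01). SLX9 fell after gamma rays (-0.92 ± 0.19) and rose after fast neutrons (0.76 ± 0.16). Factors of 60S assembly fell in 23 of 62 after thermal neutrons, 15 of 61 after carbon ions, 17 of 52 after gamma rays (2 rose) and 0 of 61 after fast neutrons (2 rose), with medians of -0.40, -0.30, -0.20 and -0.07. RNA polymerase I and III genes, whose products transcribe the ribosomal and transfer RNA, fell in 8 of 26 (2 rose), 8 of 25 (2 rose), 8 of 21 and 2 of 23 in the same order of radiations, with medians of -0.30, -0.27, -0.33 and 0.03. RPA190 and RPA135, the large subunits of polymerase I, fell after thermal neutrons (-0.64 ± 0.14 and -0.72 ± 0.63) and after fast neutrons (-1.02 ± 0.50 and -0.84 ± 0.29). RPA14 rose after thermal neutrons (0.53 ± 0.22) and carbon ions (0.52 ± 0.20), and RPC10 after carbon ions (0.61 ± 0.17). Counts of these lists moved with single arrays too. Without thermal neutron replicates 1, 2 and 3, the counts lower were 3, 4 and 1 for other 40S factors, 18, 13 and 8 for 60S factors and 5, 3 and 1 for polymerase genes. In those fits 14.1%, 13.7% and 13.4% of all genes fell, and without replicate 3 none of these lists lay above that share. Without carbon ion replicates 1, 2 and 3, the counts lower were 0, 0 and 14 for other 40S factors, 0, 0 and 22 for 60S factors and 2, 0 and 5 for polymerase genes. There 3.66%, 2.98% and 11.4% of all genes fell. Without fast neutron replicate 2, 3 of 35 other 40S factors and 7 of 61 60S factors fell, and 8 and 10 rose. Of 23 polymerase genes 4 fell and 3 rose there, where 16.4% of all genes fell and 16.8% rose. Without fast neutron replicate 1, 0 genes of these lists fell or rose, where 0.972% of all genes fell and 0.405% rose. Without replicate 3, 1 of 26 polymerase genes fell and 0 other genes of these lists were called. There 0.698% of all genes fell and 0.471% rose. With the high-power scans alone 0 genes of these lists were called, RPA190 and RPA135 included.

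Cytosolic ribosomal protein genes had a median above 0 after thermal neutrons, carbon ions and fast neutrons, and below 0 after gamma rays. Of 123 tested, 25 rose (20.3%, where 19.9% of all genes did) and 7 fell after thermal neutrons (median 0.15). After carbon ions 33 rose (26.8%, where 9.7% of all genes did) and 0 fell (median 0.28). After gamma rays 1 rose and 38 fell (30.9%, where 22.4% of all genes did, median -0.18). After fast neutrons 9 of 121 rose, where 5.06% of all genes did, and 2 fell (median 0.25). The count that rose was 20, 12 and 10 of 123 without thermal neutron replicates 1, 2 and 3. In those fits 14.1%, 13.6% and 13.9% of all genes rose, so that 12 and 10 of 123 were below the share of all genes. Without carbon ion replicates 1, 2 and 3 the count that rose was 11, 18 and 22. There 4.15%, 4.02% and 9.18% of all genes rose. The count that fell after gamma rays was 33, 29 and 21 without replicates 1, 2 and 3, where 19.1%, 15.1% and 14.1% of all genes fell. After fast neutrons the count that rose was 0, 47 and 0 without replicates 1, 2 and 3, 35 with array weights and 34 with the low-power scans alone. Of all genes, 0.405%, 16.8% and 0.471% rose without replicates 1, 2 and 3.

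**Figure D5:**
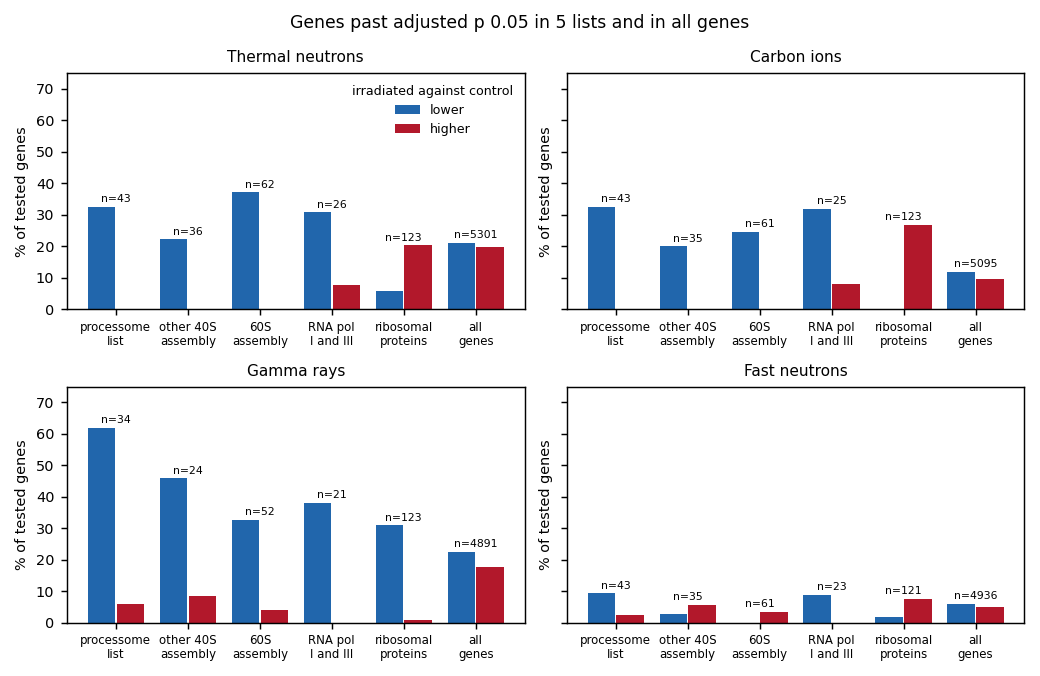
Percent of tested genes lower (blue) and higher (red) at an adjusted p under 0.05 in the processome list, 4 other lists and all genes, in a panel for each radiation, with the number tested above each pair of bars. The processome list reaches 61.8% lower after gamma rays, and ribosomal protein genes have red bars of 20.3% after thermal neutrons and 26.8% after carbon ions.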

How the data were processed

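The values are log2 ratios of Cy5 (irradiated) over Cy3 (control), normalized by LOWESS on spots with flag value 0, per the labels. The log base is not given in the sources used here and was settled from the values: 4 columns have their lowest value at log2 of 0.01. The 21 columns come from 12 arrays, 9 of them scanned at high and low laser power. Scans were averaged per probe, then probes per gene. Probes were named through the platform annotation, updated by Entrez identifier. Dyes were not swapped, and any dye effect therefore enters each ratio against 0. The first table holds 9 arrays and shares 1 spread estimate. Fast neutrons, on another array type, were fitted alone. Tests were two-sided limma fits (3.58.1, R 4.3.3, lmFit and eBayes), adjusted by Benjamini-Hochberg over all genes tested. The fit was also run on simulated data. These had no missing values, dye effects or shared controls, so the run did not check how such features act on the calls. The number of arrays limits the precision.

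The genes and lists were chosen with earlier results of these data known. Any listed gene could be named. Full statistics went mainly to the 8 smallest p of each radiation and the 5 smallest in each direction of each difference, every called gene got its mean, and values on every array went to genes among those 8 in at least 2 radiations, to the highest and lowest mean of each radiation, and to a few more chosen after their values were seen. Of the other lists up to 4 genes with the smallest p could be named. Replicate numbers did not pair the arrays (residual correlations -0.25 to 0.13). Alternatives were array centring, scaling and weights, 1 scan, genes with 2 of 3 arrays, fewer arrays in the fit, a replicate block, and leaving out each array. Sequences and promoter motifs were not analysed here.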

Additional observations from a re-analysis of the deposited data

Results flagged for a closer look

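Differences between radiations that passed the limma test of the difference itself are listed here because the response of the same gene differed between radiations. Between thermal neutrons and carbon ions NSR1 differed by -0.72. Between thermal neutrons and gamma rays the differences were -1.01 for NOP1, 1.21 for UTP6, 0.88 for UTP13, 1.59 for UTP15, 0.97 for UTP18, -0.73 for RRP8, 1.41 for SOF1 and -0.86 for SAS10. Between carbon ions and gamma rays they were -0.92 for NOP1, 1.11 for UTP13, 1.24 for UTP15, 0.76 for UTP22, 1.04 for SOF1 and -1.01 for SAS10. Dose, exposure time, vessel and scanning changed with the radiation and cannot be told apart from it. UTP18, UTP22, SAS10 and NSR1 each lost a call without at least 3 of the arrays left out in turn, and SOF1 lost the difference between carbon ions and gamma rays without gamma ray replicate 3 (adjusted p = 0.057).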

How the results depend on the processing

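Of 813 alternative values for the 71 calls of listed genes, 679 passed the threshold, 134 did not and 0 changed sign, and 28 of the 71 calls passed under every alternative run. The count lower after carbon ions was 14, against 27 with array weights, 3 with carbon ions fitted alone and 0 to 21 with an array left out. After thermal neutrons the count lower was 5 to 12 with an array left out. After gamma rays the count lower was 14 to 19 and the count higher 1 to 3 with an array left out, the UtpA and UtpB count was 6 to 8, against 11, and the median was -0.59 to -0.49. The median was -0.60 to -0.29 after carbon ions and -0.24 to -0.02 after fast neutrons with an array left out. After fast neutrons the count lower was 2 with median-centred arrays, 0 with high-power scans and 7 with low-power scans, and 0 to 7 with an array left out. The count higher there was 0, 4 and 3 with high-power scans, low-power scans and array weights, and 0 to 4 with an array left out. For thermal neutrons minus carbon ions the count lower was 0 with scaled arrays and the count higher 1 with array weights, and both were 0 to 1 with an array left out. For thermal neutrons minus gamma rays the count higher was 9 with array weights and 4 to 8 with an array left out. For carbon ions minus gamma rays the count lower was 4 with array weights, 1 with only the 6 arrays of the pair and 1 to 4 with an array left out. With the replicate block the counts lower were 12 after thermal neutrons, 11 after carbon ions and 21 after gamma rays, with 3 higher after gamma rays, and the counts of the differences were the same as without it. No replicate block was possible for fast neutrons, which have 1 array per number. A fit that leaves some arrays out has fewer arrays, and the cause of these changes was not tested. With genes measured on 2 of 3 arrays included, 24 of 42 listed genes were lower after gamma rays, 3 of them among the 10 without a value on replicate 3.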
